A study of Mus musculus with 6 samples.

Results

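The expression of 9 genes that follicular helper T (Tfh) cells are known for was examined in CD4+ T cells of the spleen with and without surface Lrig1 (CD4+Lrig1+ and CD4+Lrig1-). The 9 genes, chosen by name with earlier results of these data known, were Bcl6, Ascl2, Tox, Tox2, Pou2af1, Cxcr5, Sh2d1a, Il21 and Sostdc1, out of the 45777 genes listed in the deposited tables. All 9 were found by symbol, and all 9 passed the filter on low counts. Ascl2 passed it only through the CD4+Lrig1+ libraries (52 and 187 counts, against 7 and 6 in CD4+Lrig1-). It is included in the counts of genes below, where its higher level in CD4+Lrig1+ T cells is not independent of the filter.

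Tfh cells are CD4+ T cells that enter the B cell follicle and help B cells through the germinal centre reaction. Bcl6, a transcriptional repressor, is the factor that defines them, and the chemokine receptor Cxcr5 brings them towards the follicle, where its ligand Cxcl13 is made. Ascl2, Tox and Tox2 act with or ahead of Bcl6, the adaptor SAP (encoded by Sh2d1a) holds T cells and B cells together through SLAM family receptors, and IL-21 is the cytokine by which Tfh cells drive B cells. The same receptor and repressor are also used by follicular regulatory T (Tfr) cells, which carry Foxp3, and Bcl6, Cxcr5 and Pou2af1 are used by B cells as well.

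T cells were isolated from the spleens of female C57BL/6 mice at 7 weeks of age, an inbred strain with no transgene or treatment named in the labels, and were separated by surface Lrig1 into CD4+Lrig1+ and CD4+Lrig1- groups. The labels list 3 samples per group. Values were available here by group for 2 libraries of each, held in 2 tables with 1 CD4+Lrig1+ and 1 CD4+Lrig1- library per table (called set 1 and set 2). The study describes its quantitative data in general as coming from independent experiments or samples. How many mice gave each library was not given in the sources used here, nor how the tables relate to animals, so p-values measure the spread between these libraries, which may be technical.

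The libraries held 44865070 to 59977951 estimated counts. Lrig1 itself had 221 and 129 TMM-normalised CPM (counts per 1000000 after scaling of the libraries) in the CD4+Lrig1+ libraries of sets 1 and 2 and 75.4 and 36.7 CPM in the CD4+Lrig1- libraries. Of the T cell identity genes Cd4 had 924 to 1100 CPM and Cd3e 453 to 632 CPM over the 4 libraries, and Lat had 491 to 549 CPM. Others moved more, with 191 to 732 CPM for Cd3d, 326 to 801 CPM for Cd3g and 257 to 683 CPM for Cd2, each higher in set 2 in both groups. Across genes, log2 CPM correlated at 0.960 and 0.959 between the groups within a set and at 0.908 between the sets within each group, so the sets differed more than the groups did. For this reason each gene is given by library and by its ratio within each set. For 1 gene in 2 and 2 libraries, the smallest p of an exact permutation test is 0.333 (two-sided), and within a set there is 1 library per group and no test.

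In both sets all 9 genes were higher in CD4+Lrig1+ than in CD4+Lrig1- T cells, as 36.5% of the 16123 genes tested were. The log2 ratio was at least 1 in both sets for 6 of the 9, against 7.37% of all genes, and at least 2 for 4 of them, against 3.01%. For 7 of the 9, all but Sh2d1a and Pou2af1, the CD4+Lrig1+ values were both above the CD4+Lrig1- values, which held for 14.3% of all genes. The median log2 fold change was 2.02 over the 9 genes and -0.04 over all genes tested. In bulk populations, more cells that express a gene and more RNA of it per cell cannot be told apart.

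The quasi-likelihood test of edgeR over all 4 libraries, with Benjamini-Hochberg adjustment over all genes, called 0 of the 9 and 0 of all genes (0% called, smallest adjusted p = 0.501). At an unadjusted p under 0.05, 6 of the 9 were higher and none lower, against 4.18% of all genes higher and 1.41% lower. The Wald test of DESeq2 called 4 of the 9 higher (Ascl2, Tox2, Il21 and Sostdc1), against 1.63% of all genes. When the set of each library was a term in the edgeR model (called the set term here), so that the groups were compared within sets, all 9 were called higher, and 14.6% of all genes were called higher and 12.8% lower (27.4% in either direction). The DESeq2 Wald test with the set term also called all 9 higher, as it did 11.5% of all genes. The adjusted p-values below are from edgeR with the set term unless they are said to be without it. In that model 4 libraries leave few residual degrees of freedom, and edgeR borrows the spread of other genes. A small p there rests largely on that borrowed spread and on the agreement of the ratios of the sets, not on many replicates.

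**Figure D1:**
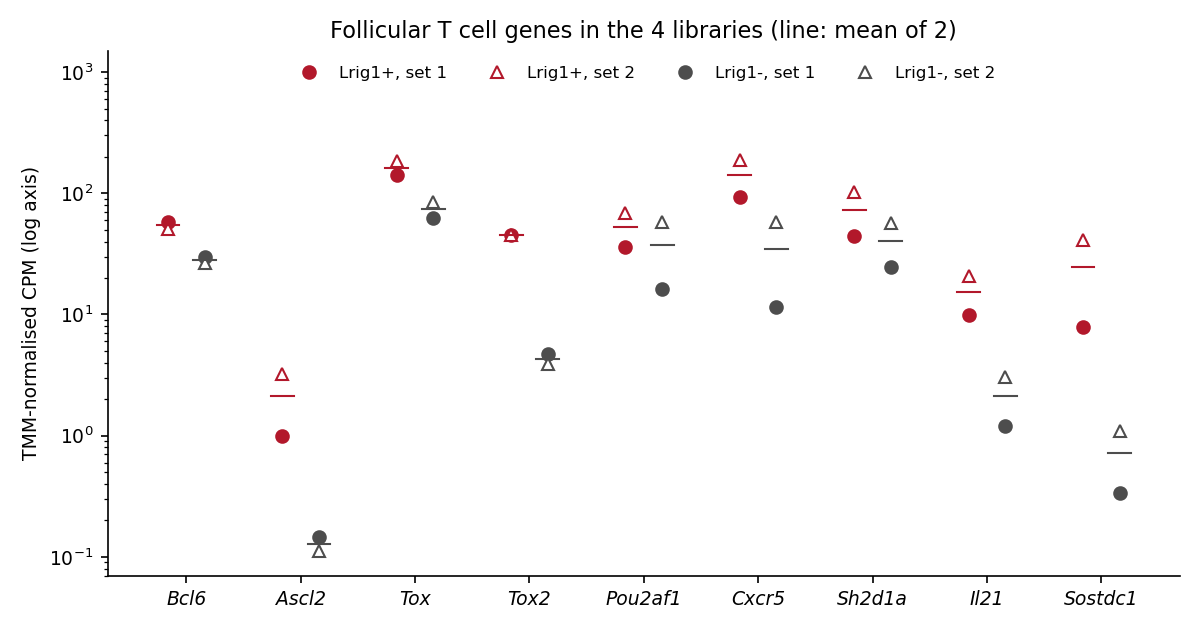
TMM-normalised CPM on a log axis (y) for the 9 follicular T cell genes (x), with red for CD4+Lrig1+ and grey for CD4+Lrig1- T cells, circles for set 1, triangles for set 2 and a short line for the mean of the 2 libraries. The red symbols lie above the grey ones of the same set for every gene, and the groups overlap for Pou2af1 and Sh2d1a.

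Of the transcription factors, Bcl6 had 58.4 and 51.1 CPM in the CD4+Lrig1+ libraries of sets 1 and 2 and 29.6 and 26.8 CPM in the CD4+Lrig1- libraries. The groups did not overlap, and the level moved little between sets. The means were 54.7 ± 5.17 (SD, n = 2) and 28.2 ± 1.93 CPM. The log2 ratio was 0.98 in set 1 and 0.93 in set 2, and the log2 fold change was 0.95 (standard error 0.08, adjusted p = 0.000251). Without the set term the adjusted p from edgeR was 0.699. The gene (gene ID 12053) lies on chromosome 16 of GRCm38 from 23965050 to 23988866.

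Bcl6 is transcribed from alternative starts, and the tables list 4 transcripts. In all 4 libraries NM_009744, which begins at the upstream starts, carried most of the estimated counts, from 89.5% to 99.8%. The transcript of the downstream start had, in set 1, 5.27% of the counts in the CD4+Lrig1+ and 3.74% in the CD4+Lrig1- library, with overlapping 95% Wilson intervals of 4.53% to 6.12% and 2.87% to 4.86%. In set 2 it had 0.0682% and 0.276%, that is 2 and 4 counts. The share was thus higher in both libraries of set 1 than in those of set 2, and whether it differed between the groups was not tested. These intervals cover counting error only.

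The 250 bases before both starts are shown because STAT factors downstream of the IL-6 and IL-21 receptors are known inducers of Bcl6. They are from RefSeq (GRCm38.p6), minus strand, 5′ to 3′, and capitals mark matches of TTCNNNGAA, the palindrome that STAT dimers bind, on either strand. The upstream window is chr16:23988853-23989102 and the downstream window is chr16:23981284-23981533.
Bcl6 upstream start: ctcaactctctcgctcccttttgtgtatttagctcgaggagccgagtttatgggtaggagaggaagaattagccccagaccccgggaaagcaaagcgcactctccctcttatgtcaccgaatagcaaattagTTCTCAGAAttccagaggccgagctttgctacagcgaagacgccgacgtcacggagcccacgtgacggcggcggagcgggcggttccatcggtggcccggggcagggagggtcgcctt
Bcl6 downstream start: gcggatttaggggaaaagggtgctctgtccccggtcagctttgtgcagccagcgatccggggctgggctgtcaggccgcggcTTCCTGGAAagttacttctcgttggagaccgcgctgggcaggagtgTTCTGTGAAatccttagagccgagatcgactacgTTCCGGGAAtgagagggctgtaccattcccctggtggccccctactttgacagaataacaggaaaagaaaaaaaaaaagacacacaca

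The upstream window held 1 match, from 118 to 110 bases before the start, and the downstream window held 3. The motif was present in 7.02% of the 32851 windows of this length in the promoter table. A match is a description of the sequence, and binding was not measured here. Neither Stat3 (log2 fold change 0.08, adjusted p = 0.480 in edgeR) nor the shared receptor chain Il6st (0.01, adjusted p = 0.972) was called, and Il6ra, the IL-6 receptor chain, was lower (-0.62, adjusted p = 0.00544). The motif does not tell STAT factors apart. Stat5a, of the IL-2 pathway that restrains Bcl6, was higher (0.50, adjusted p = 0.00270 in edgeR), and Stat5b was not called (0.13, adjusted p = 0.261). The paralogue Bcl6b had 4 and 6 counts in the CD4+Lrig1+ libraries and 0 and 3 in the CD4+Lrig1- libraries, and it was removed by the filter.

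Ascl2, a basic helix-loop-helix factor that can induce Cxcr5, was the scarcest of the 9. It had 52 and 187 estimated counts in the CD4+Lrig1+ libraries and 7 and 6 in the CD4+Lrig1- libraries, or 1.000 and 3.26 against 0.146 and 0.111 CPM. There was no overlap between the groups, and the CD4+Lrig1+ library of set 2 was the highest. The fold within a set, taken with no prior count, was 6.84 in set 1 (exact 95% interval 3.10 to 17.9, counting error only) and 29.3 in set 2 (13.2 to 80.9). The log2 fold change was 3.87 (standard error 0.59, adjusted p = 0.00311, and 0.649 without the set term). Ascl2 (gene ID 17173) lies on chromosome 7 from 142966822 to 142969264. Ascl2 proteins bind E-boxes, and the E-box CAGCTG, which reads the same on both strands, was in none of the 10 windows that the promoter table holds for 5 of the 9 genes (Tox2, Il21, Ascl2, Pou2af1 and Bcl6, some of them overlapping), against 13% of all windows.

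Tox, a high mobility group box factor needed for CD4+ T cell development and raised in chronically stimulated T cells, was the most abundant transcription factor of the 9. Its CPM was 141 and 185 in the CD4+Lrig1+ and 62.7 and 85.1 in the CD4+Lrig1- libraries. Again no value overlapped between the groups, and both groups were higher in set 2. The log2 ratio was 1.17 in set 1 and 1.12 in set 2, and the log2 fold change was 1.14 (standard error 0.07, adjusted p = 6.08e-05, and 0.740 without the set term). Tox (gene ID 252838) is placed on chromosome 4 from 6686353 to 6991552.

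Tox2, a close relative, was far more uneven. It had 45.4 CPM in each of the CD4+Lrig1+ libraries and 4.74 and 3.91 CPM in the CD4+Lrig1- libraries, so that the libraries of a group lay close together across the sets. The log2 ratio was 3.25 in set 1 and 3.53 in set 2, and the log2 fold change was 3.40 (standard error 0.12, adjusted p = 6.31e-06). Without the set term the adjusted p was 0.501 in edgeR, the smallest it gave, and 1.96e-09 in the Wald test of DESeq2. Of the other TOX family genes, Tox4 had log2 ratios of 0.10 and -0.07 (adjusted p = 0.910), and Tox3 had 7 and 0 counts in the CD4+Lrig1+ and 8 and 4 in the CD4+Lrig1- libraries and was removed by the filter.

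Tox2 (gene ID 269389, chromosome 2 of GRCm38 from 163203058 to 163324172) has 12 listed transcripts in 2 groups of starts. The 8 transcripts of the upstream starts, from 163203058 to 163204190, held 82.2% and 95.9% of the counts in the CD4+Lrig1+ libraries and 100% of the 227 and 211 counts in the CD4+Lrig1- libraries. The 4 transcripts of the downstream starts, at 163225453 to 163225456, held 421 counts in the CD4+Lrig1+ library of set 1, or 17.8% (95% Wilson interval 16.3% to 19.4%), and 107 counts in set 2, or 4.10% (3.41% to 4.94%). They held 0 counts in both CD4+Lrig1- libraries, for which 3 counts of the total set a limit of 1.32% in set 1 and 1.42% in set 2 and the Wilson interval reaches 1.66% and 1.79%. The downstream share in CD4+Lrig1+ T cells was thus above both limits in each set, and it also differed between the CD4+Lrig1+ libraries. The assignment of short reads to overlapping transcripts was estimated by the authors' assembly, and neither the limits nor the intervals cover its error. Counts of 0 in CD4+Lrig1- T cells were not particular to the downstream starts. The upstream transcript NM_001363063 also had 0 counts in both of those libraries, with 44.6% of the counts in the CD4+Lrig1+ library of set 2.

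The 250 bases before 1 start of each group are shown. Both of these single starts had counts in the CD4+Lrig1+ libraries and 0 in the CD4+Lrig1- libraries. In the CD4+Lrig1- libraries, other upstream starts held 100% of the Tox2 counts. NM_001363063, from the upstream start shown, had 89 and 1162 counts in the CD4+Lrig1+ libraries and 0 in the CD4+Lrig1- libraries, each of which had counts on 3 other transcripts. The sequences are from RefSeq (GRCm38.p6), plus strand, 5′ to 3′, at chr2:163203936-163204185 and chr2:163225203-163225452. Capitals mark TATAAA, the TATA box, searched on both strands.
Tox2 upstream start: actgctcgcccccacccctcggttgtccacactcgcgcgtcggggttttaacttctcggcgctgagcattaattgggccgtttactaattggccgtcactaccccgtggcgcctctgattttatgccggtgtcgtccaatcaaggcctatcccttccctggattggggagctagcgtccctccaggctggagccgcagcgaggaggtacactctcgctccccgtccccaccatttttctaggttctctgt
Tox2 downstream start: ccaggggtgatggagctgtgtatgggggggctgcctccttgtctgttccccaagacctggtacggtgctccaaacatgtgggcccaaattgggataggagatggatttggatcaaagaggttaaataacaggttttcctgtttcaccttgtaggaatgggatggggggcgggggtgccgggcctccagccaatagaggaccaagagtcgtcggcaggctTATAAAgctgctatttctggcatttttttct

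The upstream window had 59.2% G and C and 19 CpG dinucleotides and no match, and the downstream window had 52.8% and 5 CpG and a match from 31 to 26 bases before the start. A TATAAA match was present in 12.4% of all windows, and the median share of G and C was 52.4%. TTCNNNGAA was in none of the 5 windows listed for Tox2.

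The transcripts of Tox were divided differently between the groups and the sets. In both sets XM_017320230 had the larger share in the CD4+Lrig1+ library, 16.8% (95% Wilson interval 16% to 17.7%) against 1.3% (0.951% to 1.77%) in set 1 and 9.21% (8.68% to 9.78%) against 2.79% (2.35% to 3.3%) in set 2. NM_145711 held 55.9% of the Tox counts in the CD4+Lrig1- library of set 1 and 10.5% in its CD4+Lrig1+ library, whereas in set 2 it held 6.40% and 5.76%, with overlapping intervals of 5.73% to 7.14% and 5.34% to 6.22%. XM_006537944 led in the other 3 libraries, with 63.5%, 85% and 90.8%. The difference in NM_145711 was therefore seen in set 1 and not in set 2, whereas that in XM_017320230 was seen in both, with 1 library per group and set. XM_006537945 had 671 counts in the CD4+Lrig1+ library of set 1 and 0 in the others, so the estimated split was not stable. As for Tox2, the intervals do not cover the error of assigning reads to transcripts, and a difference between the groups was not tested.

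**Figure D2:**
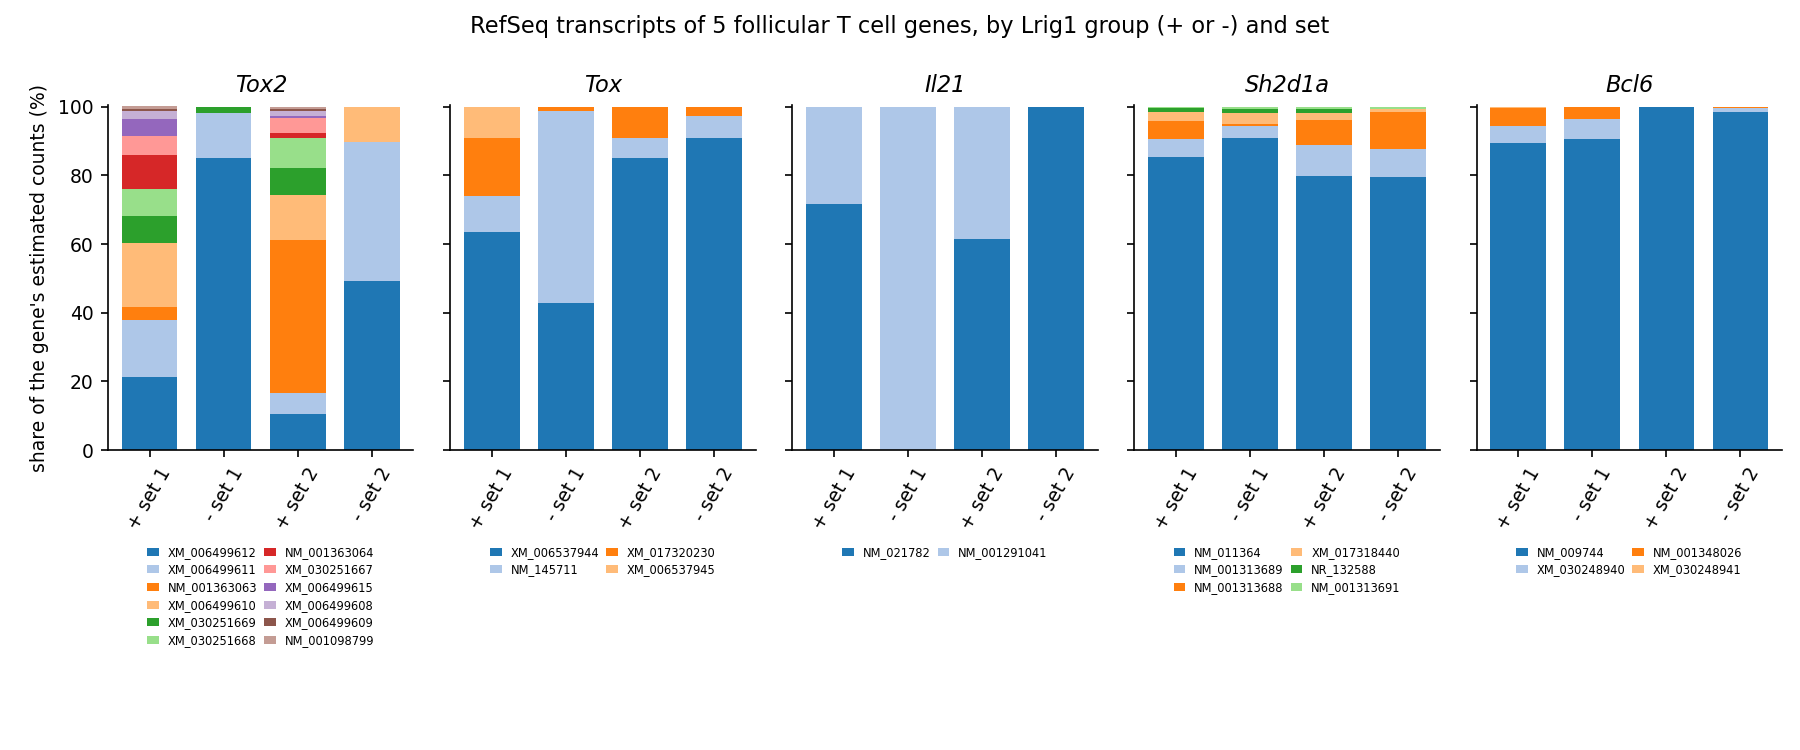
Share of each gene's estimated counts (y, percent) carried by each RefSeq transcript (colours) in the 4 libraries (x, Lrig1 group and set) for Tox2, Tox, Il21, Sh2d1a and Bcl6. Tox2 had counts on all 12 transcripts in both CD4+Lrig1+ libraries and on 3 in each CD4+Lrig1- library, and the single Il21 transcript counted in CD4+Lrig1- T cells was not the same in the 2 sets.

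Pou2af1, which encodes the coactivator OCA-B (Bob1) that works with the octamer factors, had the smallest log2 ratio of the 9 in set 2, though not in set 1, where those of Sh2d1a and Bcl6 were smaller. Its CPM was 35.9 and 68.8 in the CD4+Lrig1+ libraries and 16.2 and 58.5 in the CD4+Lrig1- libraries. The groups overlapped, and the CD4+Lrig1- library of set 2 was above the CD4+Lrig1+ library of set 1. The log2 ratio was 1.14 in set 1 and 0.23 in set 2, and the log2 fold change was 0.67 (standard error 0.19, adjusted p = 0.0377, and 1.00 without the set term). Pou2af1 (gene ID 18985) lies on chromosome 9 from 51213690 to 51240079 and has 1 listed transcript. With the set term and the size factors of DESeq2 the edgeR adjusted p was 0.0743, and with no filter on low counts it was 0.182, so this call was lost.

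Of its octamer partners, Pou2f2 (Oct-2) had 239 and 77.5 CPM in CD4+Lrig1+ and 54.6 and 20.9 CPM in CD4+Lrig1- T cells. It was higher by 2.13 and 1.89 on the log2 scale in the sets (adjusted p = 1.28e-05). Pou2f1 (Oct-1) was slightly lower, with log2 ratios of -0.30 and -0.40 (adjusted p = 0.0132).

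Cxcr5 had 94.0 and 187 CPM in the CD4+Lrig1+ libraries and 11.6 and 57.9 CPM in the CD4+Lrig1- libraries. The groups did not overlap, and within each group the library of set 2 was higher. The within-set fold was 8.11 in set 1 (exact 95% counting interval 7.43 to 8.87) and 3.23 in set 2 (3.11 to 3.36). These intervals did not overlap, but they cover counting error only and not the spread between libraries. Whether the fold differed between the sets was not tested. The log2 fold change was 2.30 (standard error 0.27, adjusted p = 0.000865, and 1.00 without the set term). The gene (gene ID 12145, chromosome 9 from 44511787 to 44526444) has 1 listed transcript and shares 120 bases with Bcl9l, which had fewer counts in the CD4+Lrig1+ library of each set (12882 against 16391 and 3691 against 5153). Cxcl13, the ligand, had 6 and 10 counts in the CD4+Lrig1+ and none in the CD4+Lrig1- libraries and was removed by the filter.

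The level of B cell transcripts differed between the libraries, and B cells also express Cxcr5 and Pou2af1. The 12 B cell markers summed in set 1 to 108 CPM (CD4+Lrig1+) and 93.3 CPM (CD4+Lrig1-), and in set 2 to 442 and 888 CPM. None of the 12 was at 0 in any library, 9 of 12 were lower in CD4+Lrig1+ T cells in set 1 and 12 of 12 in set 2. With the set term 4 of the 12 were called lower, among them Spib, Fcrla and Cr2, and 0 higher. The log2 ratio of the sums was 0.20 in set 1 and -1.01 in set 2. Cxcr5 and Pou2af1 had their smaller ratio in set 2, as did Il21, Tox and Bcl6, and Ascl2, Tox2 and Sostdc1 had their larger ratio there. Between the CD4+Lrig1- libraries, the log2 CPM was higher in set 2 by 2.32 for Cxcr5, 1.85 for Pou2af1, 1.60 for Sostdc1, 1.31 for Il21, 1.19 for Sh2d1a and 0.44 for Tox, and it was lower in set 2 for Bcl6, Tox2 and Ascl2. The part of B cell RNA in these ratios was not tested.

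**Figure D3:**
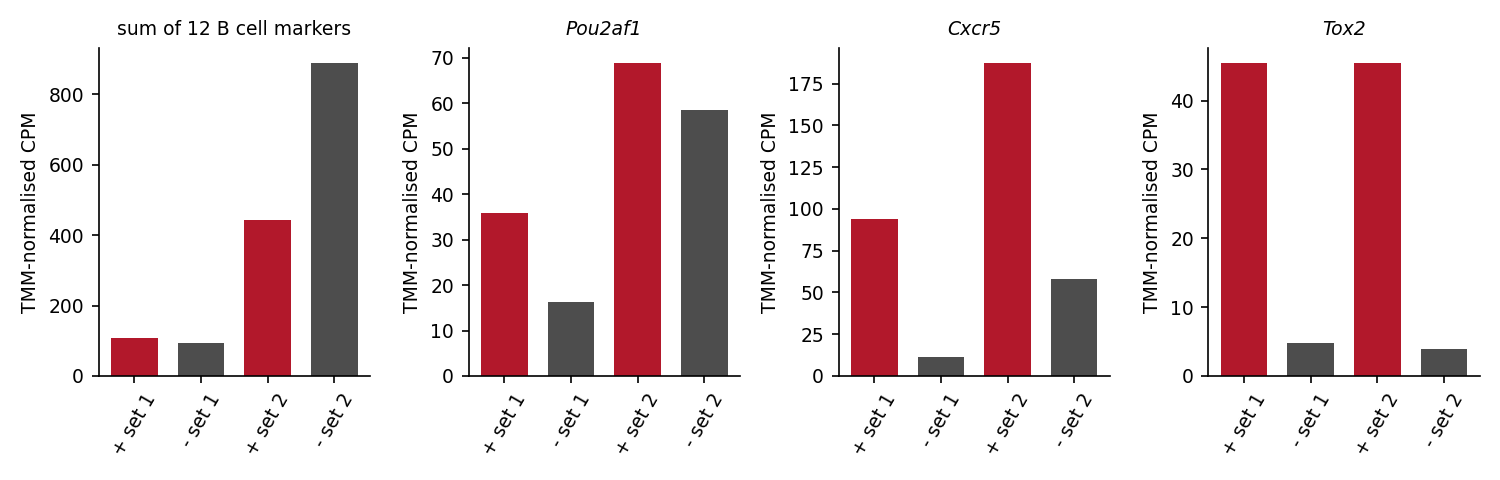
TMM-normalised CPM (y, bars from 0) of the sum of 12 B cell markers and of Pou2af1, Cxcr5 and Tox2 in the 4 libraries (x, Lrig1 group and set, red for CD4+Lrig1+ and grey for CD4+Lrig1-). The marker sum was highest in the CD4+Lrig1- library of set 2 (888 CPM), where Pou2af1 and Cxcr5 were higher than in that of set 1 (58.5 against 16.2 and 57.9 against 11.6 CPM) and Tox2 was lower (3.91 against 4.74 CPM), and of the genes not drawn Sostdc1, Il21, Sh2d1a and Tox were also higher there and Bcl6 and Ascl2 lower.

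Sh2d1a had 44.3 and 102 CPM in the CD4+Lrig1+ libraries and 24.6 and 56.3 CPM in the CD4+Lrig1- libraries. The groups overlapped, because the gene was higher in set 2 in both groups. Within the sets the ratio was nearly the same, 0.85 in each on the log2 scale, and the log2 fold change was 0.85 (standard error 0.08, adjusted p = 0.000281, and 1.00 without the set term). Sh2d1a (gene ID 20400) lies on chromosome X from 42502565 to 42522097. NM_011364 led among its 6 transcripts in every library, with 79.5% to 91% of the counts. The related adaptor gene Sh2d1b1 (EAT-2), which NK cells use, had 6 and 49 counts in the CD4+Lrig1+ and 50 and 70 in the CD4+Lrig1- libraries and was not called (adjusted p = 0.109).

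The secreted products were rare in CD4+Lrig1- T cells. Il21 had 514 and 1201 counts in the CD4+Lrig1+ and 58 and 165 counts in the CD4+Lrig1- libraries, or 9.88 and 20.9 against 1.21 and 3.06 CPM. The groups did not overlap. The log2 ratio was 2.99 in set 1 and 2.76 in set 2, and the log2 fold change was 2.88 (standard error 0.15, adjusted p = 2.98e-05, and 0.674 without the set term). The gene (gene ID 60505) lies on chromosome 3 from 37222759 to 37232636. The exact counting intervals of the folds, 6.21 to 10.9 in set 1 and 5.81 to 8.10 in set 2, overlapped. The receptor gene Il21r was evenly expressed, with 281 and 261 CPM in CD4+Lrig1+ and 255 and 260 CPM in CD4+Lrig1- T cells (log2 fold change 0.07, adjusted p = 0.570).

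Both Il21 transcripts were counted in each CD4+Lrig1+ library, with NM_021782 at 71.6% and 61.5%. In CD4+Lrig1- T cells all 58 counts of set 1 were placed on NM_001291041 and all 165 counts of set 2 on NM_021782, so the split of this gene between transcripts was not stable between the CD4+Lrig1- libraries.

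Sostdc1, which encodes a secreted antagonist of BMP and Wnt signalling, had the largest fold of the 9 in each set. It had 412 and 2373 counts in the CD4+Lrig1+ libraries and 16 and 59 counts in the CD4+Lrig1- libraries, or 7.92 and 41.3 against 0.334 and 1.09 CPM. The groups did not overlap, and the CD4+Lrig1+ library of set 2 stood above that of set 1 by 2.38 on the log2 scale, the widest such gap of the 9 genes. The fold, taken with no prior count, was 23.7 in set 1 (exact 95% counting interval 14.4 to 41.9) and 37.8 in set 2 (29.2 to 49.8). The log2 fold change was 5.04 (standard error 0.19, adjusted p = 9.01e-06, and 0.649 without the set term). The gene (gene ID 66042) lies on chromosome 12 from 36314169 to 36318452. The DESeq2 Wald test without the set term gave an adjusted p = 5.62e-05. Sost, its closest relative, had 0 counts in all 4 libraries.

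**Figure D4:**
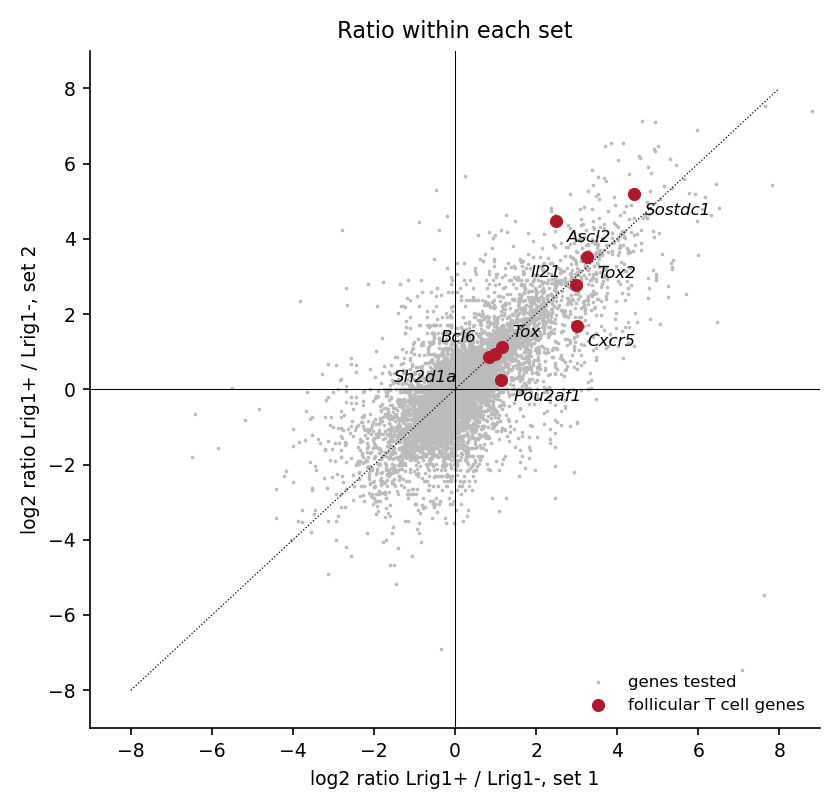
Log2 ratio between the groups (CD4+Lrig1+ over CD4+Lrig1-) in set 1 (x) against set 2 (y), with grey points for the 16123 genes tested, red points for the 9 follicular T cell genes and a dotted line where both sets are equal. All 9 lie in the upper right quadrant, from Pou2af1 (1.14 and 0.23) to Sostdc1 (4.42 and 5.19), and Cxcr5 (3.02 and 1.69) lies below the line and Ascl2 (2.50 and 4.47) above it.

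Levels can be compared between genes only per length, as FPKM (fragments scaled by transcript length and by library). Sh2d1a was the highest of the 9 in every library, from 26.9 to 104 FPKM, and Ascl2 the lowest, from 0.0579 to 1.82 FPKM. In CD4+Lrig1- T cells the order below Sh2d1a was Tox (18.9 and 19.6 FPKM in sets 1 and 2), then Bcl6, Pou2af1 and Cxcr5, which changed places between the sets, then Tox2 (1.52 and 1.13), Il21 (0.361 and 0.832), Sostdc1 (0.183 and 0.526) and Ascl2. In CD4+Lrig1+ T cells Cxcr5 had 34.3 FPKM in set 1, below Tox (39.7), and 64.0 FPKM in set 2, above Tox (46.1). Tox and Cxcr5, as well as Bcl6, Tox2, Pou2af1 and Sostdc1, did not keep their order between the CD4+Lrig1+ libraries, so neighbours among them did not differ beyond the spread. Bcl6 at 15.5 and 13.1 FPKM and Tox2 at 14.6 and 13.6 FPKM were at like levels in CD4+Lrig1+ T cells, whereas in CD4+Lrig1- T cells Bcl6 (7.85 and 6.39 FPKM) was above Tox2.

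The wider Tfh program was read from 46 further genes in 6 lists, and not all of these genes are particular to follicular cells. The study reports PD-1 (Pdcd1), CTLA4 (Ctla4), CD25 (Il2ra) and Foxp3 as suppressive markers that were higher in CD4+Lrig1+ T cells. Whether such genes were higher through follicular or other regulatory T cells was not tested. Without the set term edgeR called 0 of the 46 (16 were higher and 2 lower at an unadjusted p under 0.05). With it, 21 were called higher and 11 lower, against 14.6% and 12.8% of all genes, and 14 were not called. The median log2 fold change over all 46 was 0.24, but the 46 pool genes that promote and genes that oppose Tfh cells, so it has no single direction. The groups did not overlap for 22 genes higher and 9 lower in CD4+Lrig1+ T cells, against 14.3% and 11.8% of all genes. The lower calls included 7 of the 12 antagonists, and the Tfr list and the list of SLAM receptors had no lower call. The higher calls included 3 of the antagonists and 5 of the Tfr list.

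Of the 8 surface and effector genes of Tfh cells, 4 were called higher and 1 lower. Pdcd1 (PD-1) had 4330 and 9759 counts in the CD4+Lrig1+ and 433 and 970 in the CD4+Lrig1- libraries, and its log2 fold change was 3.22 (adjusted p = 3.79e-06). Tigit and Cd200 had log2 fold changes of 2.91 and 2.18, and S1pr2, a receptor that keeps cells in germinal centres, had 0.95 (adjusted p = 0.000451). Cd40lg, the CD40 ligand that T cells use to help B cells, was lower, with 43.7 and 58.7 against 77.7 and 107 CPM and a log2 fold change of -0.85 (adjusted p = 0.000221). Il4, the other helper cytokine on the list, had 58 and 85 counts in the CD4+Lrig1+ libraries and was not called (log2 fold change 0.43, adjusted p = 0.444).

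Of the 6 receptors that induce Tfh cells, Icos (1.27, adjusted p = 0.000137) and Tnfrsf4 (OX40, 3.78, adjusted p = 9.82e-05) were higher by log2 fold change, Il6ra was lower as given above, and Cd28, Il6st and Il27ra were not called. Of the 8 genes listed as upstream factors, 4 were higher, with log2 fold changes of 1.97 for Irf4, 1.85 for Maf, 1.39 for Batf and 1.30 for Id3. Id3 is an Id protein like Id2, which was listed with the antagonists, so its count here is not one of a factor that promotes Tfh cells. Tcf7 (TCF-1) and Lef1, which act ahead of Bcl6, were lower by -0.71 and -1.39 (adjusted p = 0.00363 and 0.000356, edgeR). Stat3 was not called, as given above. The SLAM family receptors through which SAP signals were uneven. Slamf1 (1.33) and Slamf6 (0.83) were higher, Ly9, Cd84 and Cd48 were not called, and Fyn, the kinase that SAP recruits, was higher by 0.29 (adjusted p = 0.0455).

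Of the 12 genes listed as antagonists of the Tfh program, which did not include Id3, 7 were lower and 3 higher. Prdm1 (Blimp-1), the repressor that opposes Bcl6, had 17.5 and 13.3 CPM in CD4+Lrig1+ and 16.4 and 13.0 CPM in CD4+Lrig1- T cells and was not called (log2 fold change 0.06, adjusted p = 0.712). The lower genes with the largest changes were Il7r (-1.25), Id2 (-1.02) and Ccr7 (-0.92), followed by S1pr1, Klf2, Foxo1 and Selplg, several of which keep T cells in circulation and in the T cell zone. The higher genes were Il2ra (4.05), Il2rb (1.98) and Stat5a (0.50), which belong to the IL-2 pathway that restrains Bcl6.

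Of the 6 genes listed for follicular regulatory T cells, 5 were higher and Il10 was not called (0.55, adjusted p = 0.300). Il1r2, a decoy receptor for IL-1, had 12.8 and 33.4 CPM in CD4+Lrig1+ and 1.07 and 0.870 CPM in CD4+Lrig1- T cells (log2 fold change 4.47, adjusted p = 0.000143). Foxp3 had 589 and 615 against 48.9 and 30.7 CPM (3.95, adjusted p = 1.57e-05), and Ctla4 had a log2 fold change of 3.45. Nfatc1 and Il1rn, the IL-1 receptor antagonist, had 0.81 and 1.56. Whether the follicular genes and Foxp3 were expressed in the same cells cannot be told from bulk libraries.

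**Figure D5:**
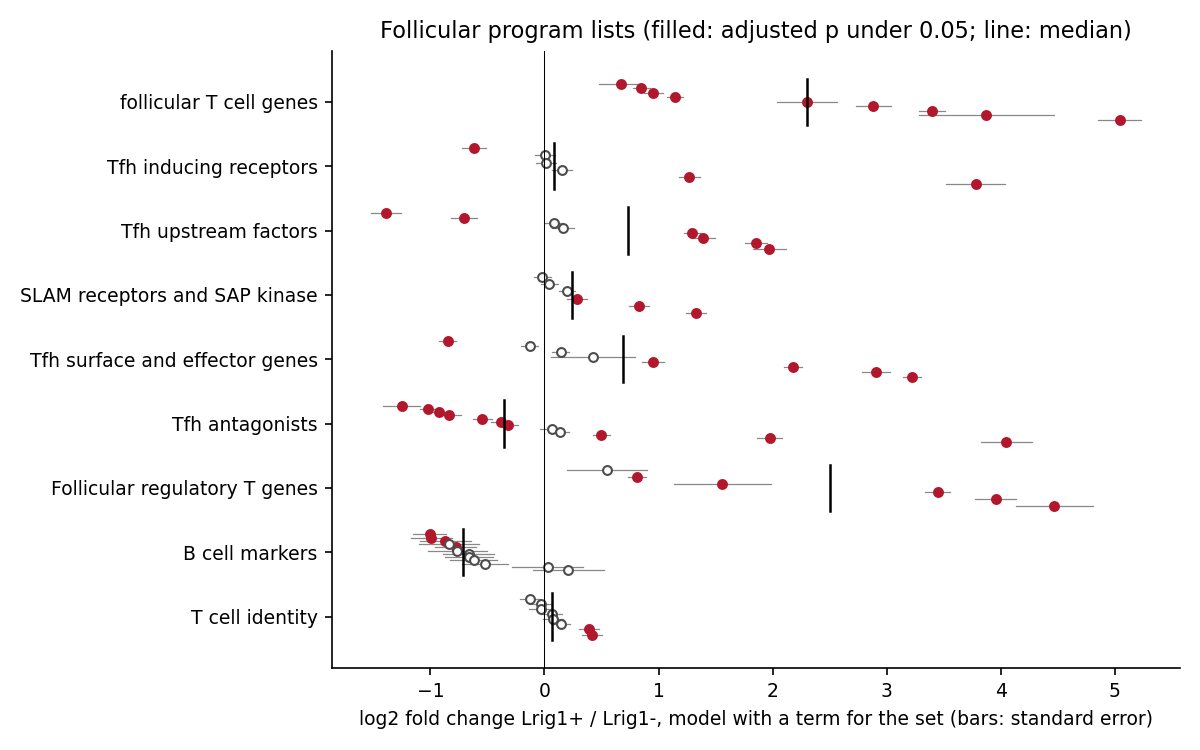
Log2 fold change of CD4+Lrig1+ over CD4+Lrig1- T cells from edgeR with the set term (x, bars for the standard error) for each gene of 9 lists (rows), filled where the adjusted p was under 0.05, with a vertical line at the median of the list. The 9 follicular T cell genes and the Tfr genes lie right of 0, with medians of 2.30 and 2.50, the antagonists lie on both sides and the B cell markers have a median of -0.71.

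Markers of myeloid, dendritic, NK, CD8 and plasma cells were present over a wide range of levels. The lowest value of a tested marker was 0.271 CPM (Cd14, CD4+Lrig1- library of set 1). The highest was 118 CPM (Xbp1, CD4+Lrig1+ library of set 2), followed by 95.5 CPM (Lyz2, CD4+Lrig1- library of set 2). These levels overlapped those of the follicular T cell genes. Of 7 myeloid and dendritic markers 4 were lower with the set term, with the largest changes for Flt3 (-2.75), Siglech (-2.57) and Itgax (-2.09), and Csf1r was higher (1.04). Of 5 NK and CD8 markers 4 were lower, among them Klrb1c (-1.79), Gzma (-1.43) and Cd8a (-0.73). Of 4 plasma cell markers tested Xbp1, which other cells also express, was higher (0.49) and Mzb1 lower (-0.75). The summed level ran from 38.4 to 195 CPM for the myeloid and dendritic markers, from 21.4 to 178 CPM for the NK and CD8 markers and from 40.8 to 195 CPM for the plasma cell markers, and each of these sums was higher in set 2 than in set 1 in both groups. Of the T cell identity genes Cd2 (0.42) and Cd5 (0.39) were called higher and the other 6 were not called. The part of these cells in the results was not tested.

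The genes whose pattern over the 4 libraries was most like the mean of the 9, by the root mean square distance between centred log2 CPM among 8824 genes, were Gabarapl1 (0.10), Eomes (0.10), Rilpl2 (0.11), Ybx3 (0.16) and Casp4 (0.16). Eomes, a T-box factor, was higher in CD4+Lrig1+ T cells by a log2 ratio of 2.51 and 2.16 in the sets. These genes were picked for their likeness to the 9, so ratios of this size and direction follow from the choice and are no separate result. With 4 libraries the likeness rests on few points.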

How the data were processed

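The authors sequenced mRNA of isolated spleen T cells, trimmed reads with Trimmomatic 0.38, mapped them with HISAT2 2.1.0 and assembled them with StringTie 2.1.3b. The submitters' notes name GRCm38, and 8 of the 9 genes had the start and end of RefSeq GRCm38.p6. The estimated counts were deposited per RefSeq transcript (129299 in all) by the authors, not normalised, as whole numbers. Of the low counts, 96.9% to 97.3% per library equalled the value worked back from FPKM and transcript length and rounded up. The counting intervals treat these estimates as counted reads and so can be too narrow. The FPKM and TPM values were deposited by the authors, scaled by transcript length and library. TPM was not used. In 1 further table, 6 columns of per-sample values were not used because their names do not give the group. Whether the authors' counting used strand is not given in the sources used here. Gm31527 and Bcl9l, which overlap Bcl6 and Cxcr5, had 3 to 10 and 3691 to 16391 counts.

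Counts were summed per gene symbol, filtered with filterByExpr (minimum count 10), normalised by TMM and tested with the quasi-likelihood test of edgeR 4.0.16 in R 4.3.3 at a Benjamini-Hochberg adjusted p under 0.05 over 16123 genes. The standard error is the log2 fold change over the root of the F statistic. For within-set log2 ratios the prior count was 2. Total counts were 48384980 and 44865070 (CD4+Lrig1+ and CD4+Lrig1-) in set 1 and 59402441 and 59977951 in set 2. Alternatives were a term for the set, DESeq2 1.42.0 (size factors, Wald test), other filters, limma 3.58.1 on log2 FPKM with a pseudocount of 1 or 0.1, and leaving out each library. The procedure was also run on simulated counts with the same spread set for all genes, which need not match these libraries, and no result given here rests on that run. Intervals used SciPy 1.17.1 in Python 3.11.15. The genes, lists and models were chosen with earlier results of these data known. Named were all 9 genes, list members by role, up to 3 of the largest changes in each direction per list past the threshold with the set term, and the 5 nearest in pattern with a mean of at least 10 CPM. Some list genes are not reported here.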

Additional observations from a re-analysis of the deposited data

How the results depend on the processing

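With the set term the count of the 9 genes called higher moved from 0 to 9, of all genes to 2358 higher and 2056 lower, and of the 46 further Tfh and Tfr genes to 21 higher and 11 lower. The DESeq2 Wald test gave 4 of the 9, 263 and 50 of all genes, and 10 higher of the 46. With the set term it gave 9, 1847 and 1960, and 20 and 11. Added after seeing the data, the set term with DESeq2 size factors gave 8, 2208 and 2388, and 21 and 11, and with no filter on low counts 8, 1304 and 820, and 19 and 8. The gene lost in both was Pou2af1. Leaving out each library in turn gave 0 to 2 of the 9, 1 to 88 genes higher and 0 to 2 lower, and 0 to 4 of the 46, the lone library being assumed to vary like the other group. Tox2 and Sostdc1 were the 2, called with the CD4+Lrig1- library of set 1 left out, and 1 of them was called when either CD4+Lrig1+ library was left out. The other alternatives called 0 genes. No paired analysis was possible because the columns carry no replicate number, so libraries were paired only by table, through the set term.

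Of 125 log2 fold changes of the 9 genes under alternatives, 2 reversed, both of Pou2af1 and both with no set term (-0.11 when the CD4+Lrig1- library of set 1 was left out, -0.06 when the CD4+Lrig1+ library of set 2 was). Leaving out each library, its values ran from -0.11 to 1.69. In the same fits the value ran from 3.46 (without the CD4+Lrig1+ library of set 2) to 6.20 for Sostdc1 and from 2.93 (the same library) to 4.66 for Ascl2. It ran from 2.20 to 3.67 for Il21, from 1.33 to 3.60 for Cxcr5 and from 0.12 to 1.57 for Sh2d1a, with the highest of Sostdc1, Il21, Cxcr5, Sh2d1a and Pou2af1 when the CD4+Lrig1- library of set 2 was left out. With log2 FPKM and a pseudocount of 1 it was 3.02 for Sostdc1 and 0.99 for Ascl2. Ascl2 had under 10 counts in CD4+Lrig1- libraries and gave no value with at least 10 counts in every library. Of 54 alternative log2 ratios within a set, 6 moved beyond their counting interval, all with FPKM, and none changed sign. The depth limits Ascl2 most, at 6 and 7 counts in CD4+Lrig1- T cells.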
